A study of Mus musculus with 12 samples.

Results

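The respiratory chain was examined as the 96 protein-coding genes whose products form its 5 complexes, 83 of them in the nuclear genome and 13 in the mitochondrial genome, of 49315 genes in the count table. Members were taken by gene symbol: the Nduf genes of complex I, Sdha to Sdhd of complex II, the Uqcr genes and Cyc1 of complex III, the Cox4 to Cox8 genes of complex IV without Cox7a1 and Cox8b, the Atp5 genes of complex V, and the 13 protein-coding mt- genes. The rule reads symbols and gene type only. By genome and complex, the nuclear members were 35 in complex I, 4 in complex II, 9 in complex III, 18 in complex IV (Ndufa4 and Ndufa4l2 among them) and 17 in complex V, and the mitochondrial members were 7, 0, 1, 3 and 2.

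RNA was sequenced from epididymal white adipose tissue (eWAT) of male mice, in 12 libraries from 4 groups of 3 mice. The mice were fed for 12 weeks on a high-fat diet (HFD) with 60% of its energy from fat. Flox mice (miR-181a2b2flox/flox, with no Cre) and KO mice (miR-181a2b2-/-, a deletion in every tissue) received weekly intraperitoneal vehicle or methotrexate (MTX, 1 mg/kg). The design asks whether the response to MTX depends on the miRNA locus, and for the respiratory chain whether both genomes moved together over the 4 groups. The diet was shared by all groups, and no lean group was among them. Libraries held 19495310 to 23976469 counts, so a share of counts is precise to far below the spread between mice. Because bulk tissue was sequenced, fewer cells of a type and less RNA per cell cannot be told apart. The deleted miRNAs themselves could not check the labels, since Mir181b-2 had 0 counts in all 12 libraries and Mir181a-2 had 2 counts in 1 library and 0 in the other 11.

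The respiratory chain passes electrons from NADH (complex I) and succinate (complex II) through complex III to complex IV, which reduces oxygen, and the proton gradient built on the way drives ATP synthesis by complex V. Complexes I, III, IV and V join subunits made from nuclear mRNAs with subunits made inside the organelle from mitochondrial DNA, whereas complex II is wholly nuclear. Mitochondrial genes are transcribed as long transcripts from each strand of the circular genome and then cut into single mRNAs, and white adipocytes carry fewer mitochondria than brown ones.

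Several libraries stood apart. The vehicle-treated flox libraries held transcripts that mark the epididymis, the duct that lies against this fat pad: the 9 epididymis markers with a row had summed CPM (counts scaled to a common library size by TMM) of 4401, 11214 and 1425 in replicates 1, 3 and 4. Among the other 9 libraries the sum was 477 CPM in the first flox MTX replicate and 1.00 to 17.4 CPM in the rest. The 10 germ cell markers summed to 202 to 581 CPM in the flox vehicle libraries and to 0.26 to 12.0 CPM in all others. The 10 adipocyte markers, which check the tissue label, were detected in every group and summed to 9684 to 47907 CPM. Flox vehicle replicate 3 also stood apart from its own group in the mitochondrial genes mt-Nd3 and mt-Nd4l. Within the MTX-treated groups, flox replicate 2 had the lowest CPM of its group in 77 of the 83 nuclear members and in all 7 well counted mitochondrial genes, and KO replicate 3 in 79 and in all 7.

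The mitochondrial genes fell into 2 classes by their counts. The 7 well counted genes, mt-Nd1, mt-Nd2, mt-Co1, mt-Nd4, mt-Nd5, mt-Nd6 and mt-Cytb, had 15375 to 418456 counts in a library. The other 6, mt-Co2, mt-Atp8, mt-Atp6, mt-Co3, mt-Nd3 and mt-Nd4l, lie next to each other on the mitochondrial genome and had 1 to 660 counts. Of these 6, all but mt-Atp8 had an annotated copy of at least 99.7% identity over nearly their whole length on chromosome 1. The copies were Gm28661 for mt-Co2, Gm10925 for mt-Atp6, Gm28437 for mt-Co3, Gm28438 for mt-Nd3 and Gm10222 for mt-Nd4l, and they lie on the minus strand between 24612407 and 24615565 of GRCm38. The copies closest to mt-Co1 and mt-Nd4 lie in the same stretch and cover 31.3% and 63.6% of these genes, and the copies of the other well counted genes were at most 96.7% identical. How reads that match a gene and its copy were counted is not given in the sources used here, so the counts of these 6 genes were not read as levels of their mRNAs.

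The counts of mt-Nd3, a core membrane subunit of complex I, and of its copy Gm28438 were divided in opposite ways in different libraries. These sequences are the first 60 bases of both, shown because 1 base distinguishes them: mt-Nd3 at chrM:9459-9518 on the plus strand and Gm28438 at chr1:24613060-24613119 on the minus strand of GRCm38. The capitals mark the base at position 3, counted from 1 at the 5′ end of the gene, where the substitution from mt-Nd3 to Gm28438 is T3C.
mt-Nd3: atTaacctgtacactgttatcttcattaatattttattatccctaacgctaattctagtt
Gm28438: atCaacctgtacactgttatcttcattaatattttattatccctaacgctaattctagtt

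Counts of mt-Nd3 were 334, 10 and 620 in flox vehicle replicates 1, 3 and 4, and 7, 6 and 3 in KO vehicle replicates 1, 2 and 3. They were 439, 473 and 660 in flox MTX replicates 1, 2 and 4, and 11, 5 and 15 in KO MTX replicates 2, 3 and 4. Counts of Gm28438 in the same order of libraries were 11, 490 and 18, then 417, 447 and 368, then 11, 8 and 8, and then 463, 283 and 415. Every library thus had nearly all its counts on 1 member of the pair: mt-Nd3 held 96.8% to 98.8% of the summed counts in 5 flox libraries, and 0.809% to 3.49% in the 6 KO libraries. Flox vehicle replicate 3 was with the KO libraries, at 2.00% (exact 95% binomial interval 0.963% to 3.65%, counting error only). The sum of both ranged from 345 to 638 counts in the flox vehicle, 371 to 453 in the KO vehicle, 450 to 668 in the flox MTX and 288 to 474 in the KO MTX libraries. As counts not scaled for library size, these ranges overlapped under both treatments. In CPM the sums overlapped under vehicle (15.0 to 29.4 in flox, 17.4 to 21.3 in KO). Under MTX they did not overlap, with 21.2, 21.8 and 41.7 CPM in flox and 20.6, 12.5 and 18.8 CPM in KO. Which base the RNA of each mouse carried was not read here, and the part of that base in the split was not tested.

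The neighbours mt-Nd4l (complex I) and mt-Co3 (complex IV) had the same division. mt-Nd4l had 42, 9 and 74 counts in flox vehicle replicates 1, 3 and 4, 4 to 7 in the 6 KO libraries and 49 to 69 in the flox MTX libraries. Its copy Gm10222 had 4, 42 and 10 counts in flox vehicle, 31 to 55 in the KO and 3 to 10 in the flox MTX libraries. mt-Co3 was divided less sharply, with 74, 38 and 93 counts against 42, 97 and 37 for Gm28437 in flox vehicle. The plot of gene and copy shows 1 flox library with the pattern of the 6 KO libraries.

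**Figure D1:**
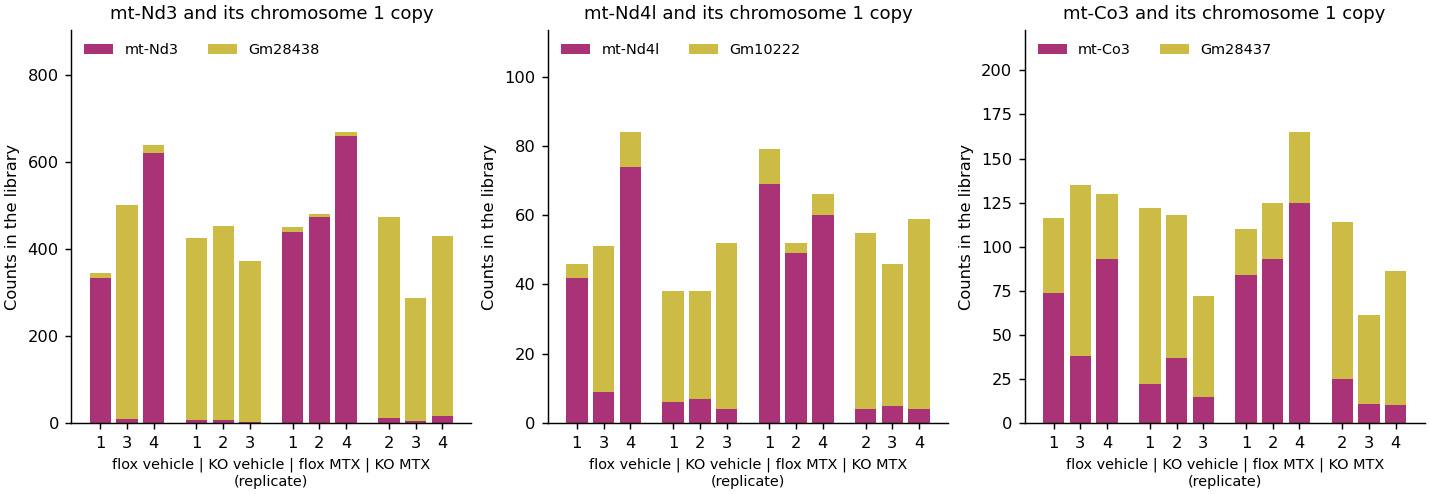
Stacked counts (vertical axis, counts in the library) of mt-Nd3, mt-Nd4l and mt-Co3 and of the chromosome 1 copy of each, for 12 libraries in 4 groups (horizontal axis, replicate). Flox vehicle replicate 3 had 10 counts of mt-Nd3 and 490 of its copy, as the KO libraries did, while the other 5 flox libraries had 334 to 660 counts of mt-Nd3.

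Over all 13 genes, the mitochondrial genome took 4.06%, 4.32% and 5.05% of the counts in flox vehicle replicates 1, 3 and 4, and 3.96%, 3.98% and 2.80% in KO vehicle replicates 1, 2 and 3. It took 4.79%, 3.61% and 5.81% in flox MTX replicates 1, 2 and 4, and 2.64%, 2.12% and 2.68% in KO MTX replicates 2, 3 and 4. The KO libraries were below the flox libraries under each treatment, and the 3 KO MTX libraries were the lowest of all 12. The 83 nuclear members took 1.37%, 1.16% and 1.32% of the counts in flox vehicle, 1.24%, 1.19% and 1.12% in KO vehicle, 1.47%, 1.07% and 1.56% in flox MTX, and 1.11%, 0.893% and 1.12% in KO MTX. For the nuclear members, the flox and KO libraries overlapped under both treatments.

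The ratio of mitochondrial to nuclear counts within a library does not depend on the scaling between libraries. It was 2.97, 3.74 and 3.83 in flox vehicle, 3.20, 3.34 and 2.51 in KO vehicle, 3.25, 3.37 and 3.72 in flox MTX, and 2.38, 2.37 and 2.39 in KO MTX. All 3 KO MTX libraries had a lower ratio than any of the other 9. Group means on the log2 scale were 1.80 ± 0.20, 1.58 ± 0.22, 1.78 ± 0.10 and 1.25 ± 0.01 (SD, n = 3 each). KO minus flox was -0.22 under vehicle and -0.53 under MTX, against an SD within groups of 0.159 pooled over the 4 groups. No test was run on this ratio, which is a score over the members. On the mean of the members' log2 CPM, which weights each gene alike and so weights the 6 little counted genes as much as the others, the same differences were -0.78 and -1.31.

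**Figure D2:**
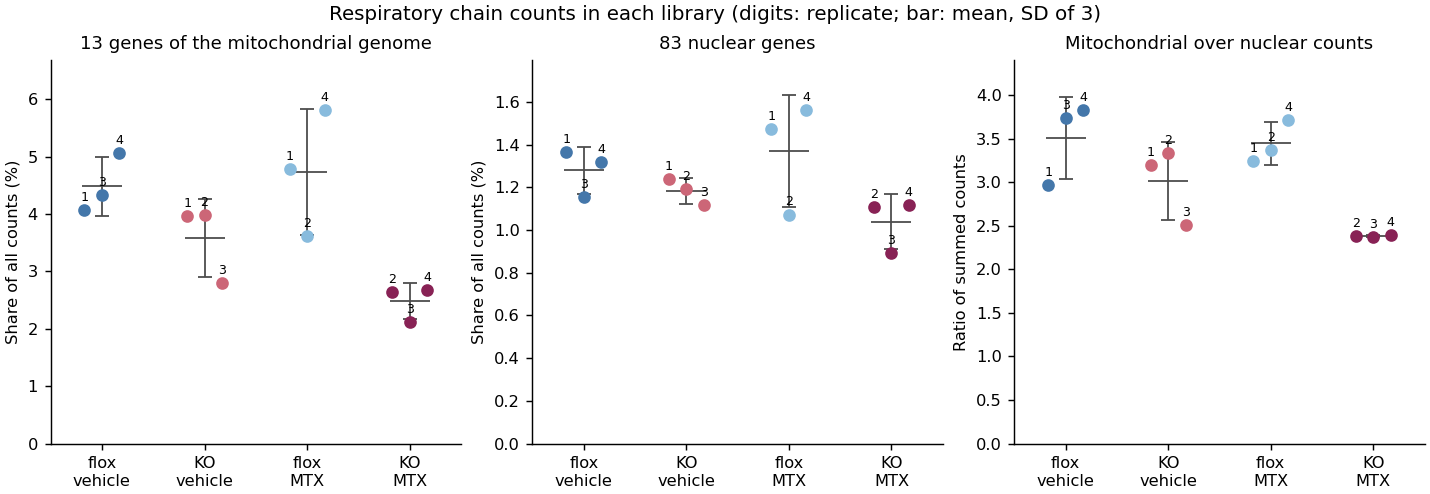
Share of all counts (%) of the 13 mitochondrial and 83 nuclear genes, and the ratio of their summed counts, in each library by group (digits, replicate number; horizontal bar and whiskers, mean and SD of 3). The ratio of the 3 KO MTX libraries was 2.37 to 2.39, below the 2.51 to 3.83 of the other 9.

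Levels per length placed the 7 well counted mitochondrial genes far above the nuclear members. Their mean CPM per kilobase in flox vehicle ran from 2241 (mt-Nd5) to 9875 (mt-Co1, the catalytic core of complex IV), with a median of 4560. The nuclear members had a median of 68.0 CPM per kilobase, with Cox8a highest at 667 and Cox6a1, Cox4i1, Atp5b and Atp5a1 at 446, 435, 268 and 237. The median of the nuclear members was 58.0 in KO vehicle, 86.2 in flox MTX and 53.4 in KO MTX. mt-Co1 was highest and mt-Nd5 lowest of the 7 in all 4 group means, and mt-Cytb was above mt-Nd1 in all groups but KO MTX.

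Between vehicle-treated KO and flox eWAT, few nuclear members were called, and most of these were isoforms of restricted expression. Of 82 nuclear members tested, 2 were higher and 4 lower by the edgeR quasi-likelihood test over all genes. A gene is termed called where its adjusted p was under 0.1 and it differed at least 1.5-fold. Their median log2 fold change was -0.0046, against -0.06 for all genes tested. The 6 of 82 stand beside 31.7% of all genes called in this comparison, and the 4 lower beside 17.8% of all genes called lower. Lack of overlap between the libraries was common here: KO was higher without overlap for 4257 and lower for 4737 of 18702 genes. Among the 82 nuclear members these numbers were 7 and 11. Of 12 mitochondrial members tested, 4 were called lower and none higher, with a median of -0.48; the 3 with a divided copy (mt-Nd3, mt-Nd4l and mt-Co3) were among these 4. DESeq2 also called 2 higher and 4 lower nuclear members and 4 lower mitochondrial ones. The share of all genes that DESeq2 called here was not counted, so its numbers are not read as results about the members. Markers of other cells differed between the same groups. The 8 macrophage markers summed to 303 to 538 CPM in flox vehicle and 2479 to 5063 CPM in KO vehicle. The 6 fibroblast markers summed to 1565 to 3181 and 6483 to 10787 CPM, and the 7 endothelium markers to 272 to 386 and 541 to 803 CPM. The 10 adipocyte markers summed to 16546 to 42485 and 18132 to 30000 CPM, which overlapped. The part of the mix of cells in the members' values was not tested.

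Ndufa4l2, the hypoxia-induced paralog of the complex IV subunit Ndufa4, was the better supported rise. It had 4.25, 8.13 and 7.61 CPM in flox vehicle replicates 1, 3 and 4 and 15.2, 17.0 and 12.4 CPM in KO vehicle replicates 1, 2 and 3. Every KO library was above every flox library (log2 fold change 1.16 ± 0.27 SE, edgeR adjusted p = 0.00946), and the call stood without each of the 12 libraries in turn. In MTX-treated mice it had 10.9, 8.58 and 8.61 CPM in flox and 12.4, 8.40 and 13.5 CPM in KO, which overlapped (adjusted p = 0.527). Its common counterpart Ndufa4 had 249, 195 and 233 CPM in flox vehicle and 223, 185 and 170 CPM in KO vehicle (log2 fold change -0.23 ± 0.24, adjusted p = 0.511).

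Cox6a2, the heart and skeletal muscle isoform of a complex IV subunit, was low in flox vehicle and higher in both KO groups. It had 0.737, 0.589 and 0.369 CPM in flox vehicle, and 3.37, 3.89 and 5.29 CPM in KO vehicle (log2 fold change 2.87 ± 0.76, edgeR adjusted p = 0.0163), a call that also stood without each library. In MTX-treated mice it had 3.30, 0.590 and 0.187 CPM in flox replicates 1, 2 and 4 and 5.69, 3.46 and 3.97 CPM in KO. The 9 skeletal muscle markers summed to 24.9 to 38.4 CPM in flox vehicle and 18.6 to 27.9 CPM in KO vehicle. They did not move as 1 set: of the 6 tested, 3 had fitted values above 0 and 3 below, with 1 called higher and 1 called lower. Their part in the values of Cox6a2 was not tested. The liver-type isoform Cox6a1 had 342, 252 and 345 CPM in flox vehicle and 362, 322 and 307 CPM in KO vehicle, which overlapped.

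Testis isoforms of complex IV were highest in the flox vehicle libraries, which also held the germ cell markers. Cox8c had 1.30, 5.62 and 3.46 CPM in flox vehicle replicates 1, 3 and 4, 0 counts in all KO vehicle and flox MTX libraries, and 0.218 CPM in KO MTX replicate 4 alone of its group. Against the upper limit of 3 counts over the 3 KO vehicle libraries, it was at least 76.6-fold lower in KO than in flox (edgeR adjusted p = 0.00631). Cox7b2 had 0.433, 1.77 and 1.38 CPM in flox vehicle and 0 to 0.0437 CPM elsewhere, and was 1 of 2 members that did not pass the filter on low counts. Cox6b2 had 4.51, 8.80 and 5.58 CPM in flox vehicle and 3.52, 3.98 and 3.56 CPM in KO vehicle (log2 fold change -0.77 ± 0.29, adjusted p = 0.0645), a call that was lost when flox vehicle replicate 3 (adjusted p = 0.251) or any KO vehicle replicate (0.114 to 0.164) was left out. The germ cell markers summed to 202 to 581 CPM in the flox vehicle libraries and 0.655 to 2.32 CPM in the KO vehicle libraries, and their part in these 3 genes was not tested. The common isoforms Cox8a, Cox7b and Cox6b1 had 315 to 457, 74.5 to 122 and 170 to 227 CPM over these 6 libraries, and none was called (Cox7b was higher in KO at adjusted p = 0.0931, with a log2 fold change of 0.42).

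**Figure D3:**
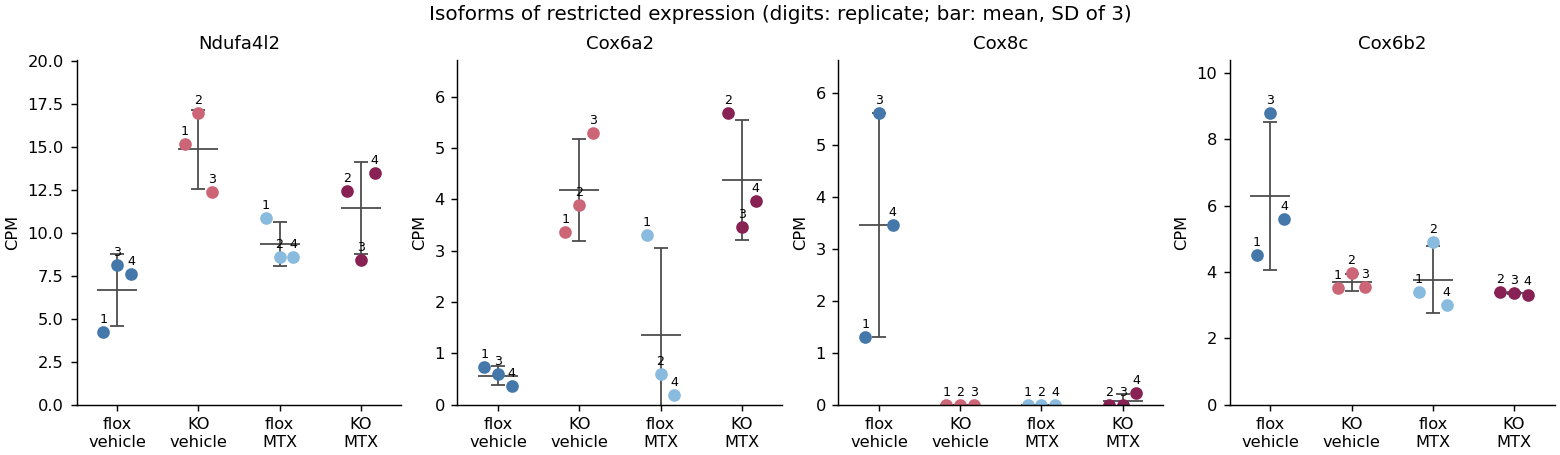
CPM of Ndufa4l2, Cox6a2, Cox8c and Cox6b2 in each library by group (digits, replicate number; horizontal bar and whiskers, mean and SD of 3). Ndufa4l2 and Cox6a2 were higher in the KO than the flox vehicle libraries, and Cox8c was above 1 CPM in the flox vehicle libraries only.

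A pair of catalytic subunits of broad expression were called lower in KO vehicle. Ndufs1, the iron-sulfur subunit of the NADH dehydrogenase arm of complex I, had 112, 79.8 and 121 CPM in flox vehicle and 71.3, 66.8 and 59.3 CPM in KO vehicle, with no overlap (log2 fold change -0.67 ± 0.25, edgeR adjusted p = 0.0702). Sdha, the flavoprotein of complex II, had 434, 265 and 393 CPM in flox vehicle and 258, 243 and 200 CPM in KO vehicle, also with no overlap (-0.64 ± 0.27, adjusted p = 0.0961). Both calls were weak: adjusted p rose to at most 0.204 for Ndufs1 and 0.272 for Sdha when a library was left out, in either case KO vehicle replicate 3 giving the highest value, and Ndufs1 lost its call in 5 of 12 and Sdha in 9 of 12 such fits. Other subunits of these complexes were not called: Ndufv1 had a log2 fold change of -0.49 ± 0.26 and Sdhb 0.25 ± 0.26. Nor were Cyc1, the cytochrome c1 of complex III (-0.18 ± 0.28), Cox5a and Cox5b of complex IV (-0.19 ± 0.22 and 0.19 ± 0.21), or Cox4i2, the lung isoform of Cox4i1 (0.05 ± 0.41).

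Among the well counted mitochondrial genes only mt-Nd6 was called in vehicle-treated mice. It had 1947, 1720 and 1815 CPM in flox vehicle replicates 1, 3 and 4 and 1362, 1228 and 945 CPM in KO vehicle replicates 1, 2 and 3, with no overlap (log2 fold change -0.63 ± 0.25, edgeR adjusted p = 0.0836). The call was lost in 9 of 12 fits without a library, with adjusted p up to 0.268 without KO vehicle replicate 3. mt-Nd6 is the only protein-coding gene on its strand of the mitochondrial genome, and since the strand setting of the counting is not given in the sources used here, transcripts of the opposite strand cannot be told apart from it. The other 6 had log2 fold changes from -0.56 ± 0.29 (mt-Nd5) to -0.19 ± 0.30 (mt-Nd1).

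The calls of the 3 genes with a divided copy are a measure of the split described above and not of an mRNA level. mt-Nd3 had a log2 fold change of -5.84 ± 1.19 (edgeR adjusted p = 0.00541), mt-Nd4l -2.80 ± 0.67 (0.0105) and mt-Co3 -1.40 ± 0.51 (0.0589). Without flox vehicle replicate 3 they were -6.41 ± 0.54, -3.29 ± 0.42 and -1.73 ± 0.49. The copy Gm28438 went the other way, with 1.47 ± 0.96 in all libraries (adjusted p = 0.272) and 4.86 ± 0.34 without flox vehicle replicate 3 (adjusted p = 0.000986). The mt-Co3 call was lost without flox vehicle replicates 1 or 4 (adjusted p = 0.124 and 0.168) or KO vehicle replicates 1 or 3 (0.135 and 0.192). The little counted mt-Co2 and mt-Atp6 had -0.54 ± 0.31 and -0.36 ± 0.32 and were not called, and mt-Atp8, at 0.0503 to 0.499 CPM, was not tested.

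In MTX-treated mice, members of both genomes were lower in KO than in flox eWAT, but none passed the test over all genes. edgeR called 0 of 82 nuclear and 0 of 12 mitochondrial members, beside 0% of all genes; the smallest adjusted p of a member was 0.104. The median log2 fold change was -0.55 for the nuclear and -1.27 for the mitochondrial members, against -0.04 for all genes tested. At an unadjusted p below 0.05, 57 nuclear members were lower and 1 higher (Cox6a2) and all 12 mitochondrial members were lower, beside 12.9% of all genes lower at this limit. KO and flox libraries did not overlap, with KO lower, for 25 of 82 nuclear and 12 of 12 mitochondrial members, beside 12.1% of all genes. The 7 well counted mitochondrial genes had a median of -1.19, and all 7 were without overlap; the other 5 are genes whose counts were not read as mRNA levels. DESeq2 called 34 nuclear and 12 mitochondrial members lower and none higher, beside 7.93% of all genes.

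Library by library, mt-Co1 had 19746, 13713 and 25909 CPM in flox MTX replicates 1, 2 and 4, and 10213, 8057 and 10194 CPM in KO MTX replicates 2, 3 and 4. mt-Cytb, the mitochondrial subunit of complex III, had 8654, 6042 and 14636 CPM in flox MTX and 4177, 3216 and 4409 CPM in KO MTX. mt-Nd5, a proton-pumping subunit of complex I, had 5026, 3454 and 6179 CPM in flox MTX and 2392, 1638 and 2154 CPM in KO MTX. All 3 genes were lower in each KO than in each flox library, at 0.479, 0.402 and 0.422 of the flox level in the fit. The log2 fold changes were -1.06 ± 0.34 for mt-Co1, -1.31 ± 0.35 for mt-Cytb and -1.24 ± 0.29 for mt-Nd5 (edgeR adjusted p = 0.117, 0.104 and 0.104). Those of mt-Nd1, mt-Nd2, mt-Nd4 and mt-Nd6 were -0.98 ± 0.30, -1.13 ± 0.33, -1.19 ± 0.29 and -1.30 ± 0.26 (adjusted p = 0.104 to 0.115).

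By complex, the nuclear members had medians nearer to 0 than the mitochondrial ones, a difference that was not tested. The median log2 fold change was -0.60 over complex I, -0.49 over complex II, -0.63 over complex III, -0.44 over complex IV and -0.49 over complex V. Lower values at an unadjusted p below 0.05 were found for 30 of 35, 1 of 4, 7 of 9, 9 of 17 and 10 of 17 members tested. Of the catalytic subunits, Ndufv1 had 201, 127 and 262 CPM in flox MTX and 122, 88.6 and 124 CPM in KO MTX, with no overlap (-0.82 ± 0.26, edgeR adjusted p = 0.116). Uqcrfs1, the Rieske iron-sulfur protein of complex III, had 178, 108 and 247 CPM in flox MTX and 109, 80.3 and 115 CPM in KO MTX, which overlapped (-0.81 ± 0.27, adjusted p = 0.126). Atp5b, the catalytic beta subunit of the ATP synthase, had 1689, 800 and 2111 CPM in flox MTX and 987, 692 and 1100 CPM in KO MTX, which overlapped (-0.73 ± 0.35, adjusted p = 0.228).

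How many members were called depended on the tool, the filter and the libraries. Flox MTX replicate 2 was low in most members. Its CPM was, in the median over nuclear members, 0.609 of the mean of the other 2 libraries of its group, and 0.562 over the well counted mitochondrial genes. Without it, 64 of 83 nuclear and 12 of 12 mitochondrial members were called lower in KO, beside 10.2% of all genes called lower in that fit, and the medians were -0.74 and -1.47. Without flox vehicle replicate 3, which is in neither group and enters through the shared spread, 9 nuclear and 8 mitochondrial members were called lower, beside 2.56% of all genes. Without KO MTX replicate 3, 0 members were called and the medians were -0.43 and -1.14. With at least 10 counts required in every library, 18 of 80 nuclear and 10 of 10 mitochondrial members were called lower. The share of all genes called in that fit was not counted, so these 2 numbers are not read as results about the members. In the main edgeR fit, 0 of 18702 genes had an adjusted p below 0.1, but 1006 had one below 0.11. Among these were 11 of 82 nuclear and 8 of 12 mitochondrial members, so a small shift in adjusted p can change many calls. The summed adipocyte markers in flox MTX replicates 1, 2 and 4 were 42690, 27334 and 47907 CPM and the summed macrophage markers 1455, 2135 and 353 CPM. In KO MTX replicates 2, 3 and 4 the adipocyte markers summed to 22802, 9684 and 23836 CPM and the macrophage markers to 3811, 4996 and 3095 CPM. All 10 adipocyte markers had a fitted value below 0 in KO against flox (median -1.22), and the part of the mix of cells in the members' values was not tested.

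**Figure D4:**
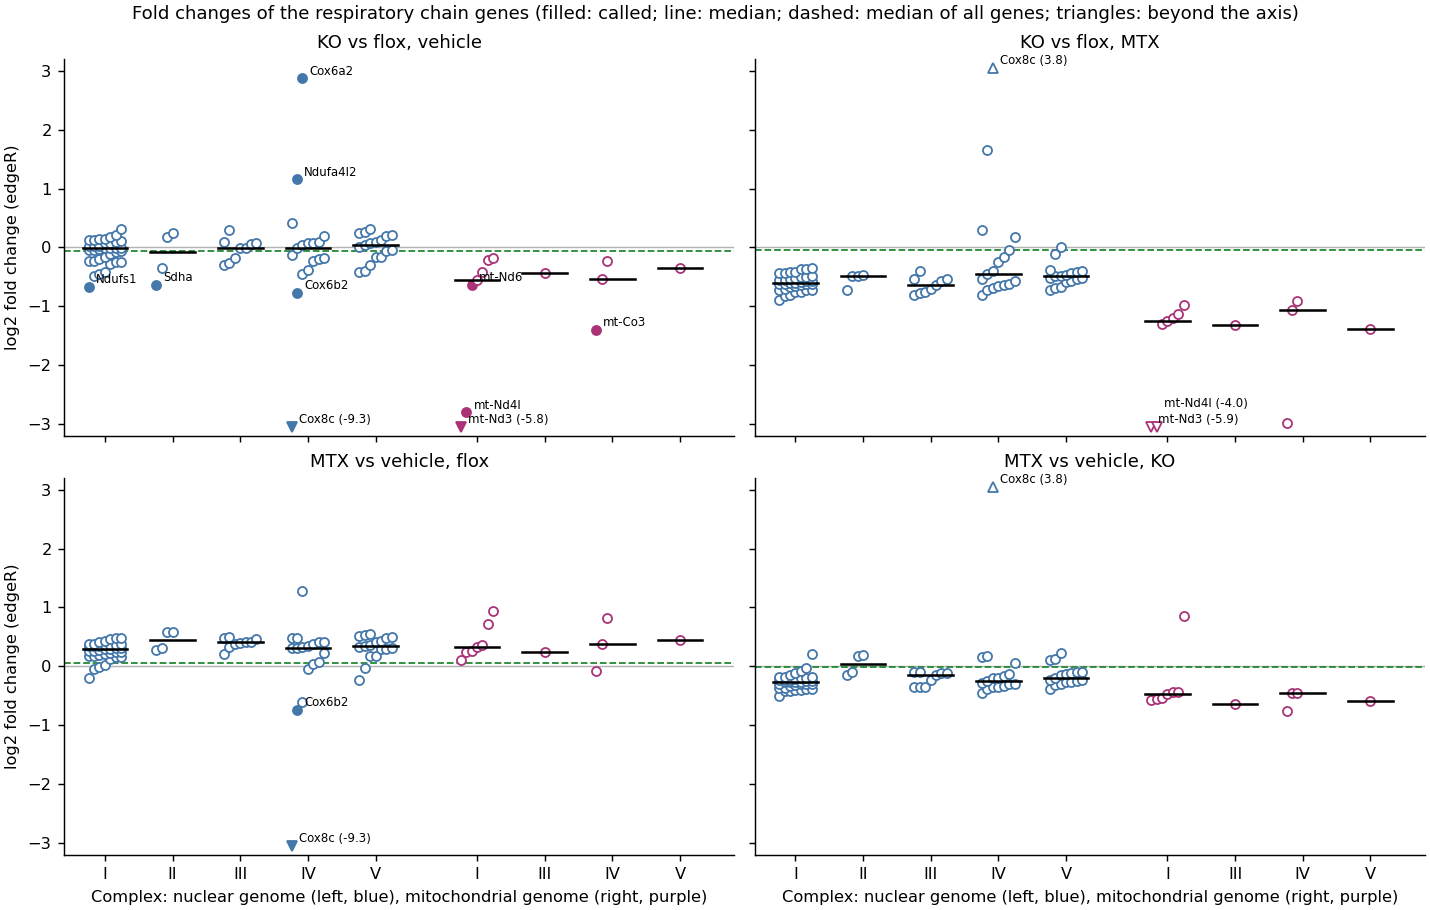
log2 fold change (edgeR, vertical axis) of each member tested, by complex and genome, in 4 comparisons (filled, called; black line, median of the complex; dashed line, median of all genes; triangles, values beyond the axis, printed beside them). In MTX-treated mice the medians of the nuclear complexes lay between -0.63 and -0.44, above those of the mitochondrial genes, and no member was called.

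MTX against vehicle in flox mice gave fitted values above 0 for most members of both genomes, and few calls. The median log2 fold change was 0.32 over the nuclear and 0.35 over the mitochondrial members, against 0.05 for all genes tested. edgeR called 2 of 82 nuclear members, both lower (Cox8c and Cox6b2), beside 24.2% of all genes called. DESeq2 called the same number, but its share of all genes called was not counted in this comparison. Cox8c was at least 80.0-fold lower in flox MTX than in flox vehicle (adjusted p = 0.0119), and Cox6b2, with 3.4, 4.9 and 3.0 CPM in flox MTX, overlapped and lost its call in 9 of 12 fits without a library, among them the fit without flox vehicle replicate 3 (adjusted p = 0.377). No mitochondrial member was called by edgeR or DESeq2, and none had an unadjusted p below 0.05. At that limit 13 nuclear members were higher and 2 lower, beside 14.8% of all genes higher. Markers of other cells differed in the same comparison: with MTX, 8 of 8 macrophage and 4 of 6 fibroblast markers were called higher (medians 1.71 and 1.05), and 5 of 7 epididymis and 10 of 10 germ cell markers tested were called lower. Only 0 of the 8 macrophage and 2 of the 6 fibroblast markers were higher without overlap. The macrophage markers summed to 353 CPM in flox MTX replicate 4, within the 303 to 538 CPM of flox vehicle. The part of all these markers in the members' values was not tested.

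The nuclear members nearest to a call in this comparison were 4 small subunits of complexes I and V. Atp5e, the epsilon subunit of complex V, had 148, 119 and 134 CPM in flox vehicle and 193, 167 and 220 CPM in flox MTX, with no overlap (log2 fold change 0.53 ± 0.16, edgeR adjusted p = 0.0363). Ndufa2 and Ndufa13 of complex I had 0.47 ± 0.15 (adjusted p = 0.0543) and 0.49 ± 0.17 (0.0667), and Atp5k of complex V had 0.51 ± 0.20 (0.0944). These 4 were under the fold limit of 1.5 and were named after their values were seen. Without flox MTX replicate 2, 27 of 83 nuclear members were called higher and 3 lower, beside 6.42% of all genes called higher in that fit, and 0 of 12 mitochondrial members.

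MTX against vehicle in KO mice gave fitted values below 0 for 72 of 82 nuclear and 11 of 12 mitochondrial members, with medians of -0.24 and -0.50 against -0.01 for all genes tested. edgeR and DESeq2 called none of them, beside 0% of all genes with edgeR. The share of all genes called with DESeq2 was not counted. At an unadjusted p below 0.05, 4 of 82 nuclear members and 0 mitochondrial members were lower, beside 4.56% of all genes. mt-Nd1 had 5264, 4905 and 3937 CPM in KO vehicle and 3838, 2846 and 3786 CPM in KO MTX, so that every KO MTX library was below every KO vehicle library (log2 fold change -0.43 ± 0.30, edgeR adjusted p = 0.779). KO MTX was lower without overlap for 27 of 82 nuclear and 5 of 7 well counted mitochondrial members, beside 1786 of 18702 genes. It was higher without overlap for 2 nuclear and 0 well counted mitochondrial members, beside 2084 genes.

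Whether genotype changed the response to MTX was tested by the interaction term, the KO response minus the flox response. No member was called by edgeR, beside 1% of all genes, and the smallest adjusted p of a member was 0.137. The median was -0.53 over the nuclear and -0.81 over the mitochondrial members, against -0.05 for all genes tested. At an unadjusted p below 0.05, 30 nuclear members were lower and 1 higher (Cox8c) and 2 mitochondrial members were lower, beside 5.45% of all genes lower. These 2, mt-Co3 and mt-Atp6, are little counted genes with a copy, and 0 of the 7 well counted genes passed this limit. DESeq2 called 3 nuclear members lower, Atp5e, Ndufa13 and Ndufa2, and 0 mitochondrial members, beside 1.43% of all genes. In edgeR these 3 had -0.80 ± 0.22, -0.74 ± 0.24 and -0.74 ± 0.22 (adjusted p = 0.143, 0.194 and 0.166).

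The well counted mitochondrial genes were also compared with each other, as levels relative to mt-Nd1. Of these 7 genes, mt-Nd1 had the smallest fall in KO under both treatments (log2 fold change -0.19 under vehicle and -0.98 under MTX). The shared negative direction of the differences below therefore follows from the choice of mt-Nd1. The relations share this denominator and are not separate results. Relative to mt-Nd1 of the same library, mt-Nd5 was at a log2 level of -0.26, -0.36 and -0.50 in flox vehicle replicates 1, 3 and 4 and of -0.68, -0.72 and -0.93 in KO vehicle replicates 1, 2 and 3. In MTX-treated mice it was at -0.65, -0.38 and -0.41 in flox and -0.68, -0.80 and -0.81 in KO. KO was below flox without overlap under both treatments. The same held for mt-Nd4 and mt-Nd6, and for mt-Cytb in vehicle-treated mice, while mt-Nd2 and mt-Co1 overlapped under both treatments. The differences under vehicle were -0.25 for mt-Nd4, -0.40 for mt-Nd5, -0.47 for mt-Nd6, -0.27 for mt-Cytb, -0.05 for mt-Nd2 and -0.06 for mt-Co1. Each of the 7 relations without overlap had the smallest p that an exact two-sided permutation test of 3 against 3 can give (p = 0.1; 0.171 after Benjamini-Hochberg adjustment over 12 relations), so this test cannot reach 0.05 with 3 libraries a group. mt-Nd2 and mt-Co1 lie upstream of mt-Nd4, mt-Nd5 and mt-Cytb on the mitochondrial genome. mt-Nd6 lies on the other strand, and mt-Cytb overlapped in MTX-treated mice. The part of position in these differences was not tested.

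**Figure D5:**
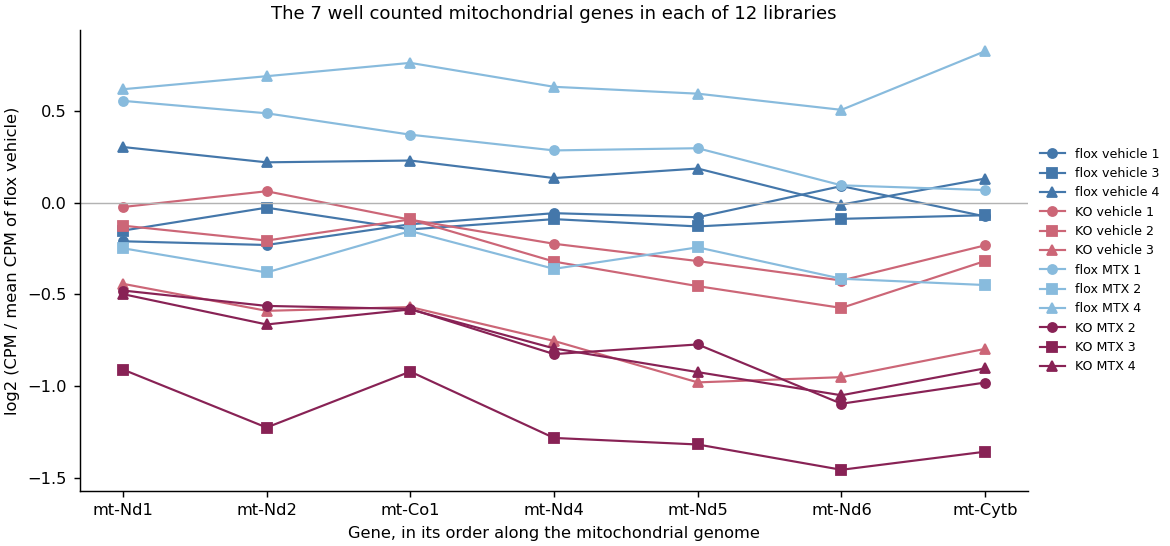
log2 ratio of the CPM of the 7 well counted mitochondrial genes (horizontal axis, in their order along the genome) to the mean of the flox vehicle libraries, 1 line per library. The 3 KO MTX lines lie below all flox lines at every gene. Each of the 6 KO lines is lower at mt-Nd6 than at mt-Co1, as are the flox MTX lines and the line of flox vehicle replicate 4.

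Genes that build, copy or regulate the chain were taken from fixed lists and read against the same backgrounds. Of 49 assembly factors tested, 4 were called lower in KO vehicle against flox vehicle and 0 higher: Nubpl and Ndufaf3 of complex I (log2 fold change -0.88 and -0.60, edgeR adjusted p = 0.00875 and 0.0165) and Cox18 and Taco1 of complex IV (-0.96 and -0.87, adjusted p = 0.0295 and 0.0264). Of 12 regulators, 3 were called lower in KO vehicle: the coactivator Ppargc1a (-0.94 ± 0.30, adjusted p = 0.0388), the lipid-sensing receptor Ppara (-1.45 ± 0.46, 0.0345) and the corepressor Nrip1 (-1.19 ± 0.31, 0.0147). Ppargc1a had 7.67, 5.03 and 5.21 CPM in flox vehicle and 3.07, 4.23 and 2.01 CPM in KO vehicle, with no overlap. Nrf1, Gabpa and Yy1, whose products bind promoters of nuclear respiratory genes, had 0.16 ± 0.16, 0.03 ± 0.09 and -0.17 ± 0.11 and were not called. Of 18 genes for copying and transcribing mitochondrial DNA, 3 were called lower, Mgme1, Primpol and Top1mt (-2.04, -1.22 and -0.72, adjusted p = 0.00524, 0.00734 and 0.0273), while Tfam had -0.29 ± 0.13 and Polrmt 0.07 ± 0.15. Of 18 genes for mitochondrial RNA processing, Fastkd1 and Lrpprc were called lower (-1.03 and -0.65, adjusted p = 0.0157 and 0.0165). In this comparison the 12 to 49 genes of each list stood beside the 31.7% of all genes called. In flox mice, Mgme1, Primpol and Fastkd1 were called lower with MTX (-1.61, -1.12 and -1.04, edgeR adjusted p = 0.0215, 0.0183 and 0.0251) and the assembly factor Sdhaf4 higher (0.63, 0.0894). These calls were 2 of 18 copying and transcription genes, 1 of 18 RNA processing genes and 1 of 49 assembly factors, beside 24.2% of all genes called. For Mgme1, Primpol and Fastkd1 the flox vehicle libraries had the higher mean in both comparisons. They were also the libraries with epididymis and germ cell markers, whose part was not tested. In MTX-treated mice edgeR called none of these genes between KO and flox, and 18 of the 49 assembly factors, 30 of 78 mitochondrial ribosome genes and 9 of 13 genes of the tricarboxylic acid cycle were lower at an unadjusted p below 0.05, with medians of -0.38, -0.35 and -0.68, beside 12.9% of all genes. At the same limit 3 of 18 genes for copying and transcribing mitochondrial DNA and 2 of 18 for its RNA processing were lower, and 3 of 12 regulators were lower and 3 higher.

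The 4 mitochondrial genes listed as targets of miR-181 included no call. Cox11 had 5.33, 5.54 and 4.06 CPM in flox vehicle and 4.38, 4.02 and 4.59 CPM in KO vehicle (log2 fold change -0.20 ± 0.22, edgeR adjusted p = 0.521), and Coq10b had 18.2, 21.5 and 26.8 CPM in flox vehicle and 29.8, 28.6 and 29.6 CPM in KO vehicle, with no overlap and a change under the fold limit (0.40 ± 0.17, adjusted p = 0.0969). Nrf1 and Prdx3 had adjusted p = 0.486 and 0.23. The isoforms left out by the symbol rule, Cox7a1 and Cox8b, which mark brown and beige adipocytes, had 3.14 to 14.0 and 6.28 to 34.4 CPM over the 12 libraries and were not called in any comparison.

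Promoter sequence was available for 64 of the 83 nuclear members, as 250 bases before to 50 bases after the start of the gene (RefSeq, GRCm38.p6). Searched on both strands, the NRF1 motif was in 17 of the 64 (26.6%) and in 5.19% of 27025 genes, the ETS motif CCGGAAG in 16 (25.0%) and 9.93%, and the YY1 motif GATGGCG in 10 (15.6%) and 4.04%. A match is a description of these letters and not a bound site. Promoters of 3 members with more than 1 NRF1 match are printed as examples. In MTX-treated KO against flox mice they had log2 fold changes of -0.73 (Sdha), -0.53 (Uqcrc1, a core protein of complex III) and -0.62 (Cox6a1), none of them called, and 77 of the 82 nuclear members lay below 0 in that comparison. They are Sdha at chr13:74350191-74350490 on the minus strand with 3 NRF1 matches, Uqcrc1 at chr9:108936398-108936697 on the plus strand with 2, and Cox6a1 at chr5:115348909-115349208 on the minus strand with 2 NRF1 matches, 1 ETS and 1 YY1 match. The capitals mark the matches, and no match overlapped another.
Sdha: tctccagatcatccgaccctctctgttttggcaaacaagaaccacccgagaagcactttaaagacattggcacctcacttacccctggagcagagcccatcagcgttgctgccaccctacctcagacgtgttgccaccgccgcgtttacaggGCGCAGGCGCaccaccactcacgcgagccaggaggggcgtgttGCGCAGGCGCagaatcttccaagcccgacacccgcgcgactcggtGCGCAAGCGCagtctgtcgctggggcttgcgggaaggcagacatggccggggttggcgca
Uqcrc1: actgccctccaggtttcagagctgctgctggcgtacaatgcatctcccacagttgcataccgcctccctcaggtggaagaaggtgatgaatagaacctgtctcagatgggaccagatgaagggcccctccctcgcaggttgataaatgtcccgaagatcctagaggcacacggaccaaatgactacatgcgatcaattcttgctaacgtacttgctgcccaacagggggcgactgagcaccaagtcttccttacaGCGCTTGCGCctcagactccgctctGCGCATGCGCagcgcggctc
Cox6a1: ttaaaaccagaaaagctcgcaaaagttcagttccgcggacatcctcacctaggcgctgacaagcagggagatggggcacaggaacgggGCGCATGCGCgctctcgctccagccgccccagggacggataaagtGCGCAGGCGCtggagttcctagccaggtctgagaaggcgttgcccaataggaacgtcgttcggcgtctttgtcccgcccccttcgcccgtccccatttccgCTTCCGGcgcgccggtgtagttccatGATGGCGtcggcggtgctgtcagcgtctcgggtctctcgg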

How the data were processed

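RNA-seq of eWAT gave the deposited counts, whole numbers per Ensembl gene that the authors made without normalization. The submitters' processing notes name Trimmomatic 0.36, STAR 2.5.2b and featureCounts of Subread 1.5.2, with GRCm38; the strand setting and the handling of reads with several matches are not given in the sources used here. The labels name polyA RNA, the study's methods ribosomal depletion. Each group held 3 libraries, 1 per mouse, of 19495310 to 23976469 counts.

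Symbols came from the GENCODE annotation of GRCm38. Counts were fitted with edgeR 4.0.16 (quasi-likelihood F-test, TMM scaling, filterByExpr, 18702 genes, all 12 libraries, 8 residual degrees of freedom) in R 4.3.3, with Benjamini-Hochberg adjustment over all genes. Called means an adjusted p below 0.1 and a fold of at least 1.5. CPM use TMM library sizes. DESeq2 1.42.0, other scalings, filters and limits, and leaving out each library were the alternatives. Copies of mitochondrial genes were found with BLAST+ 2.17.0. The scripts were tested on simulated data. Members and lists were chosen with earlier results of these data known. Named are all mitochondrial members, fixed catalytic subunits (1 is not reported here), restricted isoforms with their common counterparts, the 3 called members with the largest non-overlapping change per direction and comparison, and listed regulators and targets; others are said to be named after their values were seen. Replicate numbers did not pair the libraries: residuals of 12 same-numbered pairs correlated with a median of 0.035, and of 42 other pairs with 0.011.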

Additional observations from a re-analysis of the deposited data

How the results depend on the processing

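No called value changed sign under an alternative. Values near 0 did: the nuclear median for KO against flox under vehicle in 12 of 20 alternatives (-0.06 to 0.08), the log2 ratio for MTX in flox mice in 4 of 8 (-0.14 to 0.35), and 52 of 250 values of named genes, none of them called, in at least 1. Among the counts of called members, 188 stayed within 1.5 times the main value and 35 did not. The counts below are given without the share of all genes called in each setting. They show how the number of calls moved with the setting and are not read as results about the members. For KO against flox under vehicle, the nuclear count of 6 became 2 with a log2 fold limit of 1.5 and 4 to 7 without a library, and the mitochondrial count of 4 became 2 with at least 10 counts in every library, 2 with the 6 libraries alone, 2 with the log2 limit of 1.5, 1 among the 7 well counted genes (an alternative chosen after seeing the data) and 2 to 4 without a library. Under MTX, the nuclear count of 0 became 1 with no filter, 18 with at least 10 counts, 34 with DESeq2 and 0 to 64 without a library, and the mitochondrial count of 0 became 7, 10, 12 and 0 to 12 in these settings and 2 with the 6 libraries alone. For MTX in flox mice, the nuclear count of 2 became 1 with at least 10 counts, 1 with the replicate block, 1 with the 6 libraries alone, 6 with no fold limit, 1 with the log2 limit of 1.5 and 1 to 30 without a library (30 when flox MTX replicate 2 was left out, and 6, 1 and 4 when flox vehicle replicates 1, 3 and 4 were), and the mitochondrial count of 0 became 0 to 1, with 1 without flox vehicle replicate 4. For the interaction, the nuclear count of 0 became 1 with no filter, 3 with DESeq2 and 0 to 2 without a library (2 without flox vehicle replicate 4). With the mean of log2 CPM over members, the log2 ratio of the genomes differed by -0.78 and -1.31 between KO and flox under vehicle and MTX, by 0.35 with MTX in flox mice and by -0.53 in the interaction. Without a library the differences of the ratio of sums were -0.34 to -0.094, -0.57 to -0.47, -0.14 to 0.046 (MTX in flox), -0.46 to -0.25 (MTX in KO) and -0.43 to -0.19. The cause of these changes was not tested. The replicate block, with numbers that did not pair the libraries, gave 4 nuclear and 3 mitochondrial calls for KO against flox under vehicle. With 3 mice per group, small changes may be missed.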
